A study of Rattus norvegicus with 9 samples.

Results

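The genes described here encode 41 nuclear-encoded proteins of the mitochondrial respiratory chain, 21 of complex I, 4 of complex II, 7 of complex III, 8 of complex IV, and cytochrome c. They were listed by name, as subunits of these complexes, and no measured value entered the rule, although earlier results of these data were known when the list was made. A gene counted as measured where a probe set of the array carried its symbol and no other, and the brightest such probe set over all arrays represented it. This left 37 members (20, 4, 6 and 7 of complexes I to IV) on 40 probe sets, among 14217 genes on 31042 probe sets. Ndufa10, Uqcrb, Cycs and Cox7a2 were not measured, because the probe sets that name them name other genes too.

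The study followed rat lung fibroblasts over septation, the subdivision of the newborn lung's saccules into alveoli. Cells were freshly isolated before septation (postnatal day 2), while it was progressing (day 7) and after it had ended (day 21), with no treatment, genotype or strain named in the labels. The 9 samples, 3 per day, each came from a different litter of that day and went to a single-colour Affymetrix array of their own. A sample combined the cells of 5 littermates on day 2 and of 4 littermates on day 7 and on day 21. The cells were those that, after dispersal of the lung with trypsin and collagenase, stuck to plastic within a short plating, so other adherent cells could be among them. The 15 measured fibroblast markers averaged log2 10.30 to 10.63 per array on day 2 and 10.59 to 10.66 on day 7. On day 21 they averaged 9.88 to 10.27, below every array of the earlier days. The 29 macrophage markers averaged 8.82 to 8.99 on day 2, 7.165 to 8.001 on day 7 and 9.24 to 9.79 on day 21. The 15 measured markers of heart and skeletal muscle, whose cells are rich in mitochondria, averaged log2 4.06 to 4.52, near the 25th percentile of all values, 4.25. In such bulk samples fewer cells of a type and less RNA per cell cannot be told apart. Levels below are log2 of the deposited intensity, listed for replicates 1, 2 and 3 of a day. Changes are differences of log2 levels between days, with SEs and two-sided p-values from limma, adjusted over all probe sets, and a gene is called at an adjusted p under 0.05.

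The respiratory chain passes electrons from NADH and succinate to oxygen in the inner mitochondrial membrane. Complex I oxidises NADH and complex II succinate, both handing electrons to ubiquinone. Complex III passes them on to cytochrome c, and complex IV, cytochrome c oxidase, passes them to oxygen, while complexes I, III and IV pump the protons that drive ATP synthase. Most subunits come from nuclear genes, whose promoters often hold sites for NRF1, ETS factors such as GABPA, and YY1, and the remaining ones come from mitochondrial DNA.

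Between days 7 and 21 members of every complex were called lower, though in complex IV this was Cox7b alone. Of the 37 members 20 were lower at day 21 (54.1%) and 0 higher, against 24.4% lower and 13.7% higher of all 14217 genes. By complex, the number lower was 13 of 20 in complex I, 3 of 4 in complex II, 3 of 6 in complex III and 1 of 7 in complex IV. With 7 genes, complex IV's 14.3% cannot be set apart from the share of all genes. The complex IV genes among the further subunits described below all had negative changes. The members' median log2 change was -0.53, against -0.02 for all genes. The members are bright on this array, with mean log2 levels of 6.11 to 11.46, and of the 7464 genes in that range 33.8% were lower at day 21, with a median of -0.20. Cox5a alone sets the low end of the range, as the next dimmest member, Ndufs1, was at 7.45. The genes in the range were not matched to where the members lie within it. On 23 of 37 members every day 21 array lay below every day 7 array, as it did for 30.7% of all genes, and on 2, Cox4i1 and Cox5a, every day 21 array lay above, as for 20.5% of all genes. By limma 0 members were called higher. At an unadjusted p under 0.05 the counts were 0 higher and 22 lower, where 18.4% of all genes were higher and 29% lower. The members called lower numbered 13 without day 7 replicate 2, 11 with arrays centred on their median, and 0 with the mean of the macrophage markers as a covariate. The macrophage mean had no overlap between days 7 and 21, so this fit cannot tell it apart from the day. The fit called few genes of any kind lower, 23 of 14217 (0.162%). At an unadjusted p under 0.05 it had 13 of the 37 members lower and 0 higher, against 9.48% and 5.48% of all genes, and the members' median change was -0.94 (median SE 0.52), against -0.19 for all genes.

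**Figure D1:**
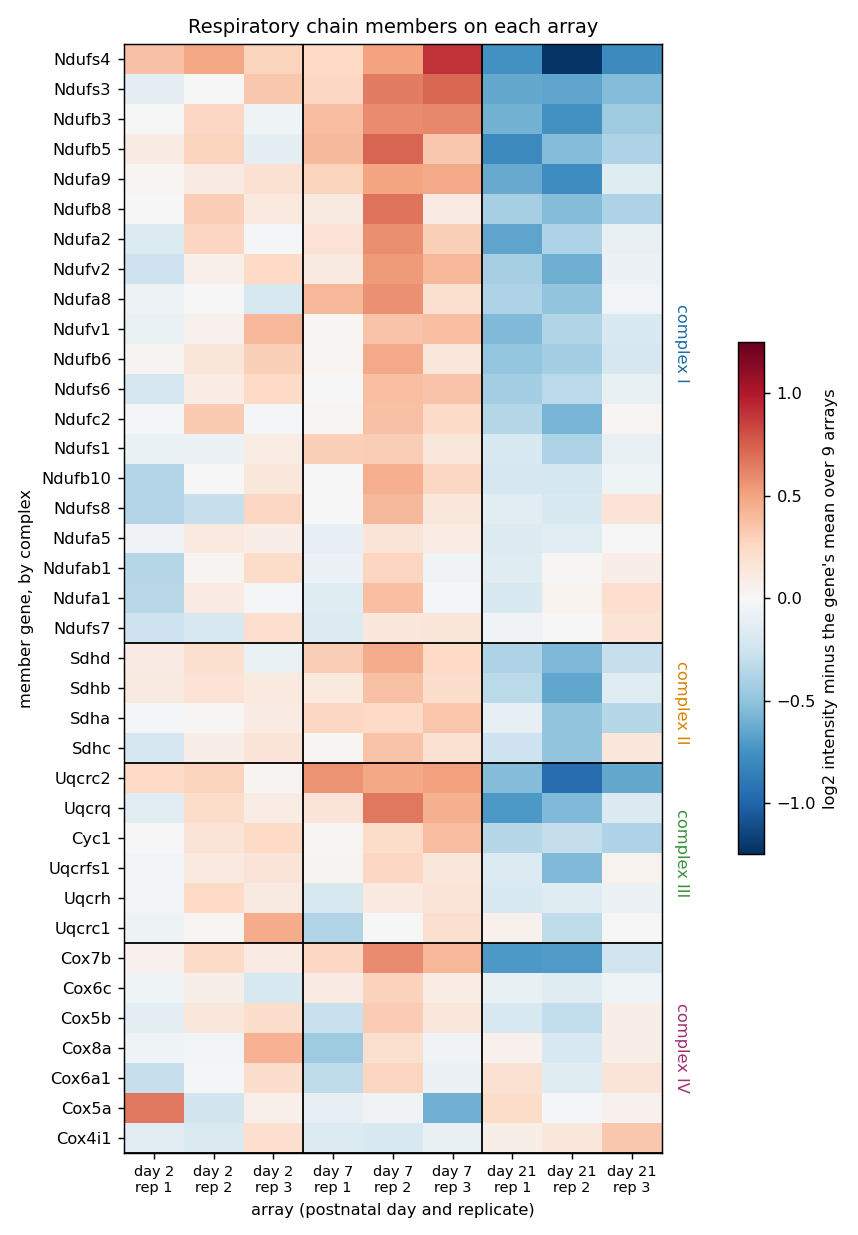
Level of each of the 37 measured members (rows, by complex) on each of the 9 arrays (columns), as log2 intensity minus the gene's mean over the 9 arrays, in red above and in blue below it. Most rows of complexes I, II and III are blue on the day 21 arrays and red on those of day 7, while in complex IV only Cox7b shows this contrast as strongly.

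Complex I held the largest fall. Ndufs4, an accessory subunit that binds where the NADH-oxidising arm is attached, was at log2 9.84, 9.95 and 9.75 on day 2, 9.72, 9.97 and 10.37 on day 7 and 8.71, 8.24 and 8.67 on day 21. Its day 21 arrays lay below every array of the earlier days, and day 7 replicate 3 was the highest. It was 2.78-fold lower at day 21 than at day 7 (log2 change -1.48 ± 0.19 SE, adjusted p = 0.000117) and 2.47-fold lower than at day 2 (log2 change -1.30 ± 0.19 SE, adjusted p = 0.000819). Ndufs3, a core subunit of the arm that leads to ubiquinone, was at log2 7.44, 7.56 and 7.89 on day 2, 7.81, 8.20 and 8.27 on day 7 and 6.92, 6.90 and 7.01 on day 21. It was highest on day 7, and its day 21 arrays lay below those of both earlier days. Ndufs3 fell 2.22-fold to day 21 (log2 change -1.15 ± 0.17 SE, adjusted p = 0.000322). The membrane-arm accessory subunits Ndufb3 and Ndufb5 fell 2.18-fold (log2 change -1.12 ± 0.16 SE, adjusted p = 0.00017) and 2.09-fold (log2 change -1.06 ± 0.18 SE, adjusted p = 0.000636). Ndufb3 was at log2 9.54, 9.80 and 9.49 on day 2, 9.93, 10.14 and 10.14 on day 7 and 8.96, 8.79 and 9.10 on day 21, with no overlap between any of the days, and Ndufb5 at log2 9.37, 9.55 and 9.15 on day 2, 9.67, 10.00 and 9.60 on day 7 and 8.47, 8.72 and 8.88 on day 21, again with none.

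The core subunits of complex I did not move as a block. Of the 6, which carry the flavin, the iron-sulphur clusters or the ubiquinone site, 4 fell to day 21. These were Ndufs3, Ndufv2 (-0.72), which holds an iron-sulphur cluster, Ndufv1 (-0.63), which binds the flavin and NADH, and Ndufs1 (-0.47), the largest iron-sulphur subunit. Ndufs7 and Ndufs8, the iron-sulphur subunits nearest ubiquinone, did not pass, with changes of 0.01 and -0.23. Ndufs7 was at log2 8.03, 8.10 and 8.50 on day 2, 8.12, 8.43 and 8.45 on day 7 and 8.25, 8.30 and 8.46 on day 21, so its days overlapped throughout. Of the 14 measured accessory subunits 9 fell. Besides Ndufs4, Ndufb3 and Ndufb5 these were Ndufa9 (-0.93), Ndufb8 (-0.74), Ndufa2 (-0.73), Ndufa8 (-0.70), Ndufb6 (-0.58) and Ndufs6 (-0.53). The 5 that did not pass were Ndufc2 (-0.52), Ndufb10 (-0.40), Ndufa5 (-0.15), Ndufab1 (-0.07), the acyl carrier protein that also serves mitochondrial fatty acid synthesis, and Ndufa1 (-0.05). Ndufc2 and Ndufb10 had no overlap between days 7 and 21 all the same. The second probe set of Ndufa9, at a mean of log2 3.61 and so below the 25th percentile, had a change of -0.13. Complex I's count of 13 was 7 without day 7 replicate 2 and also 7 with arrays centred on their median.

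In complex II, which is also an enzyme of the tricarboxylic acid cycle, 3 of 4 subunits fell between days 7 and 21. Sdhd, a membrane anchor, was at log2 9.56, 9.66 and 9.37 on day 2, 9.76, 9.92 and 9.70 on day 7 and 9.07, 8.89 and 9.16 on day 21, lowest on all day 21 arrays. It fell 1.68-fold (log2 change -0.75 ± 0.15 SE, adjusted p = 0.00234), and its second probe set changed by -0.47 (limma adjusted p = 0.0438). Sdhb, the iron-sulphur subunit, fell 1.53-fold (log2 change -0.62 ± 0.16 SE, adjusted p = 0.0116), from 9.67, 9.92 and 9.77 on day 7 to 9.22, 8.90 and 9.40 on day 21. Sdha, the flavoprotein that oxidises succinate, fell 1.52-fold (log2 change -0.60 ± 0.15 SE, adjusted p = 0.00805), from 9.14, 9.13 and 9.23 on day 7 to 8.78, 8.39 and 8.53 on day 21. Both separated the 2 days. Sdhc, the other anchor, did not pass (log2 change -0.40 ± 0.19 SE, adjusted p = 0.146). It was at log2 8.37, 8.67 and 8.74 on day 2, 8.61, 8.94 and 8.78 on day 7 and 8.32, 8.09 and 8.72 on day 21, and day 21 replicate 3 lay among the day 7 arrays. With arrays centred on their median 1 of the 4, Sdhd, was called.

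In complex III, Uqcrc2, a core protein of the matrix face, was at log2 10.08, 10.10 and 9.87 on day 2, 10.39, 10.31 and 10.34 on day 7 and 9.29, 8.87 and 9.19 on day 21. The 3 days were fully apart, with day 7 highest. It fell 2.35-fold to day 21 (log2 change -1.23 ± 0.16 SE, adjusted p = 9.02e-05), and a second probe set gave -1.36 (limma adjusted p = 0.000209). Its partner core protein Uqcrc1 was at log2 9.58, 9.67 and 10.11 on day 2, 9.27, 9.65 and 9.84 on day 7 and 9.69, 9.32 and 9.65 on day 21, with overlap between all days and a change of -0.03 ± 0.20 SE. Uqcrq, a small membrane subunit, fell 1.88-fold (log2 change -0.91 ± 0.19 SE, adjusted p = 0.00306), from 10.07, 10.57 and 10.35 on day 7 to 9.19, 9.36 and 9.72 on day 21. Cyc1, the cytochrome c1 that reduces cytochrome c, fell 1.47-fold (log2 change -0.56 ± 0.15 SE, adjusted p = 0.0138), from 9.55, 9.76 and 9.92 on day 7 to 9.17, 9.23 and 9.14 on day 21. In both genes every day 21 array was lower. The Rieske iron-sulphur protein Uqcrfs1 (-0.37) and the hinge protein Uqcrh (-0.17) did not pass.

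In complex IV only Cox7b, a small subunit of the membrane part, was called among the 7 measured. It was at log2 10.53, 10.71 and 10.58 on day 2, 10.73, 11.07 and 10.89 on day 7 and 9.76, 9.77 and 10.22 on day 21. Its day 21 arrays were the lowest, with replicate 3 above replicates 1 and 2. Cox7b fell 1.97-fold between days 7 and 21 (log2 change -0.98 ± 0.17 SE, adjusted p = 0.000872). Cox4i1, a regulatory subunit that binds ATP, was at log2 11.33, 11.28 and 11.67 on day 2, 11.29, 11.28 and 11.37 on day 7 and 11.54, 11.61 and 11.80 on day 21, and its day 21 arrays were all above those of day 7, by 0.34 ± 0.16 SE (limma adjusted p = 0.133). Cox5a, the dimmest member, was at log2 6.76, 5.88 and 6.17 on day 2, 6.01, 6.06 and 5.51 on day 7 and 6.33, 6.08 and 6.16 on day 21, with a wide spread on day 2 and a change of 0.33 ± 0.23 SE between days 7 and 21. The changes of Cox6a1, Cox8a, Cox5b and Cox6c were 0.11, 0.08, -0.20 and -0.26, with SEs of 0.20, 0.20, 0.19 and 0.14. Of these Cox6c had its 2 days apart, with 11.32, 11.51 and 11.31 on day 7 and 11.13, 11.07 and 11.17 on day 21, and the others overlapped. The complex's median change was 0.08. It was 0.15 after a further quantile normalization and 0.19 with arrays centred on their median, but -0.10 without day 7 replicate 1 and -0.40 with the macrophage covariate, where 0 of the 7 were called.

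**Figure D2:**
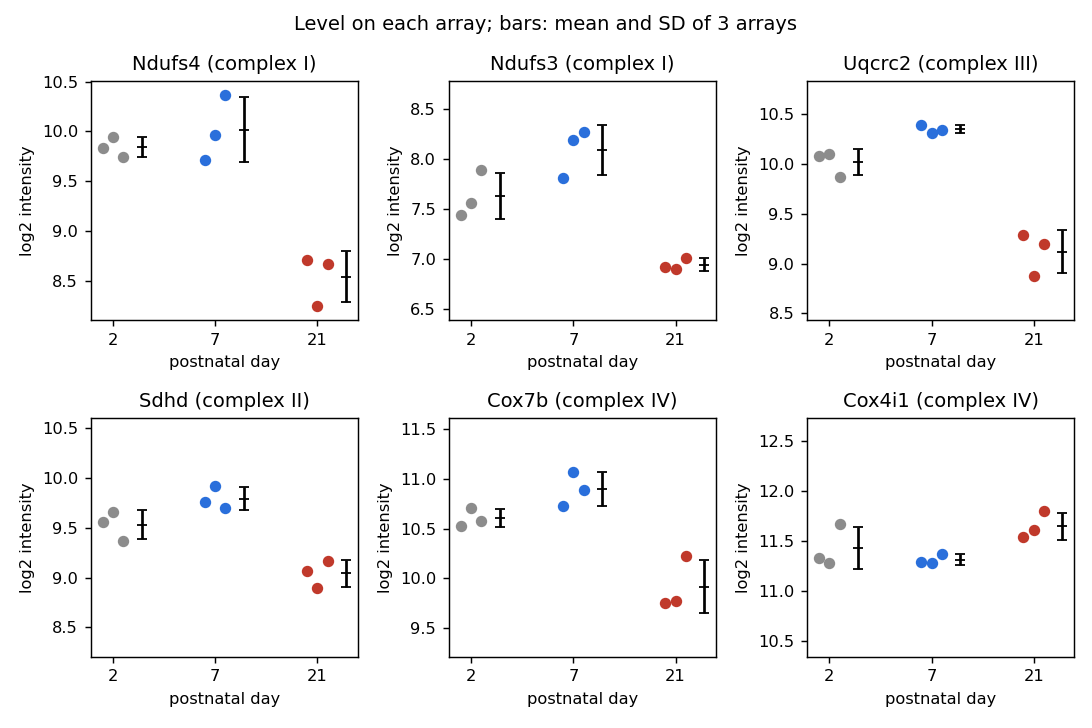
Log2 intensity on each array by postnatal day for 6 members, with the mean and SD of the 3 arrays of a day beside the points, on axes of equal span. Ndufs4, Ndufs3, Uqcrc2, Sdhd and Cox7b have all day 21 arrays below those of days 2 and 7, whereas the day 21 arrays of Cox4i1 lie above those of day 7.

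Between days 2 and 7 no member was called. Of all genes 7.02% were higher at day 7 and 4.41% lower, and 8.74% of genes in the members' range of mean level were higher. limma's adjusted p passed for 0 members in either direction, with 4 higher and 0 lower at an unadjusted p under 0.05, where 17.2% of all genes were higher and 9.52% lower. With log2 of the intensity plus 16 it called 1, Ndufb3, higher (0.45, adjusted p = 0.0411). In complex I 19 of 20 changes were positive (median 0.24), and in complex II 4 of 4 (median 0.22). In complexes III and IV 4 of 6 and 2 of 7 were positive. The medians were 0.07 and -0.02. Of all 14217 genes 8515 had a positive change. With arrays centred on their median the medians of complexes I to IV were 0.14, 0.12, -0.03 and -0.12. The median over all members was 0.17, against 0.07 for all genes, and 0.08 with arrays centred on their median. For 10 of 37 members (27%) all day 7 arrays lay above all day 2 arrays, and for 0 below, where 21.1% of all genes had day 7 fully above and 11.9% fully below.

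The largest of these differences in complex I was that of Ndufa8, an accessory subunit, with log2 8.55, 8.61 and 8.41 on day 2 and 9.03, 9.18 and 8.81 on day 7 (log2 change 0.48 ± 0.17 SE, adjusted p = 0.11). Its arrays of the 2 days did not overlap, and its day 21 arrays were at 8.12 to 8.58. Ndufs3 (0.46), Ndufb3 (0.46) and Ndufb5 (0.40) were the others with an unadjusted p under 0.05. In complexes II, III and IV the largest were those of Sdhd (log2 change 0.26 ± 0.15 SE, adjusted p = 0.358), Uqcrq (log2 change 0.36 ± 0.19 SE, adjusted p = 0.313) and Cox5a (log2 change -0.41 ± 0.23 SE, adjusted p = 0.343), the last negative. Uqcrc1 (-0.20) and Cox8a (-0.21) were also on the negative side and overlapped between days.

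Between days 2 and 21, 12 of 37 members (32.4%) were lower at day 21 and 0 higher, against 15.3% lower and 8.8% higher of all genes and 22.7% lower of genes in the members' range of mean level. The median change was -0.33, against 0.02 for all genes and -0.15 in that range. On 17 members (45.9%) every day 21 array lay below every day 2 array and on 0 above, compared with 24.5% and 18.5% of all genes. All 12 were among the 20 that were lower than at day 7, a comparison that uses the same day 21 arrays. They were 7 of 20 in complex I, 2 of 4 in complex II, 2 of 6 in complex III and 1 of 7 in complex IV. Besides Ndufs4, the complex I genes were Ndufs3 (log2 change -0.69 ± 0.17 SE, adjusted p = 0.0165), Ndufb3 (log2 change -0.67 ± 0.16 SE, adjusted p = 0.0113), Ndufb5 (log2 change -0.66 ± 0.18 SE, adjusted p = 0.0219), Ndufa9 (-0.63), Ndufb8 (-0.59) and Ndufb6 (-0.53). Uqcrc2 fell 1.86-fold (log2 change -0.90 ± 0.16 SE, adjusted p = 0.00211) and Cox7b 1.61-fold (log2 change -0.69 ± 0.17 SE, adjusted p = 0.0151). Sdhb (log2 change -0.51 ± 0.16 SE, adjusted p = 0.0439), Sdhd (log2 change -0.49 ± 0.15 SE, adjusted p = 0.0425) and Cyc1 (log2 change -0.48 ± 0.15 SE, adjusted p = 0.0439) were just inside the threshold, and each kept its call in 6 of 18 alternatives. Of the core subunits of complex I only Ndufs3 was called, and the 4 positive changes in that complex, of Ndufs7 (0.13), Ndufa1 (0.11), Ndufs8 (0.08) and Ndufab1 (0.01), were within their SEs. The count of 12 was 5, 3 and 6 without day 2 replicate 1, 2 or 3, 4 without day 21 replicate 1 or replicate 2, 6 after a further quantile normalization, 5 with arrays centred on their median and 4 with the macrophage covariate, which called 6.31% of all genes lower. Ndufs4 and Uqcrc2 were called lower at day 21 than at day 2 in all 18 alternatives run.

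**Figure D3:**
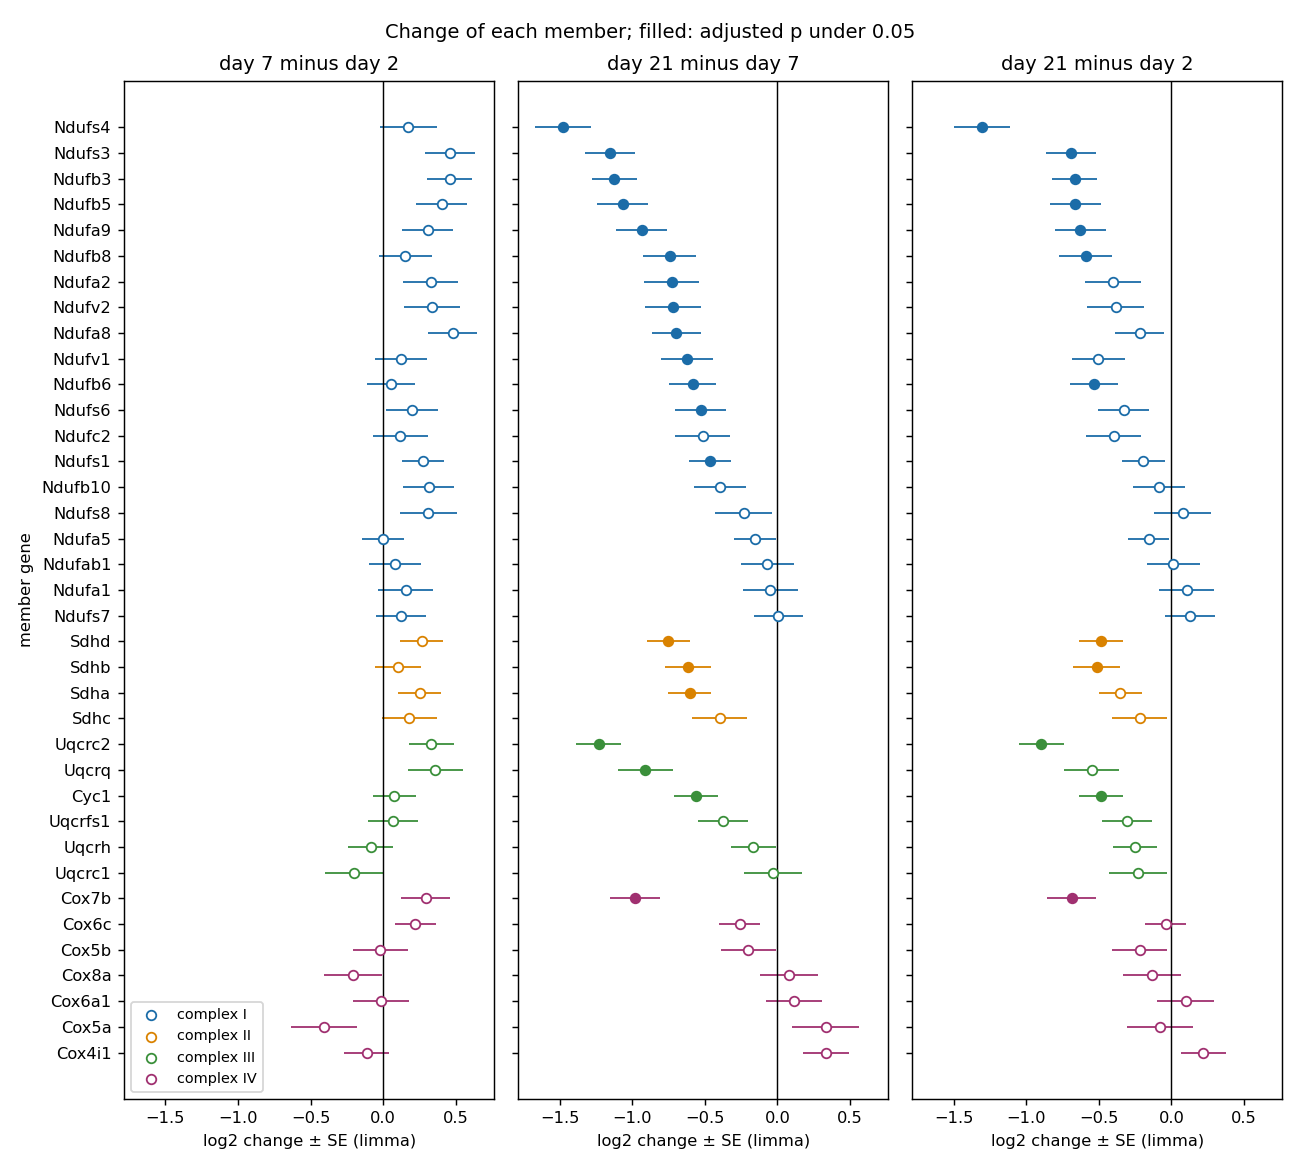
Log2 change of each of the 37 measured members with its SE from limma, in 3 comparisons of days, coloured by complex and filled where the adjusted p was under 0.05. No point is filled for day 7 minus day 2, and 20 and 12 are filled, all below 0, for day 21 minus day 7 and day 21 minus day 2.

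The complexes were set against complex IV on the same array, which cancels any shift common to all probe sets of that array. The difference between the mean log2 levels of complexes I and IV, centred over the 9 arrays, was -0.12, 0.11 and -0.01 on day 2, 0.25, 0.24 and 0.32 on day 7 and -0.34, -0.23 and -0.21 on day 21. The 3 days did not overlap, with complex I highest relative to complex IV on day 7 and lowest on day 21. Without Cox5a the ranges were -0.03 to 0.07, 0.20 to 0.26 and -0.30 to -0.21, and with medians in place of means -0.02 to 0.05, 0.06 to 0.46 and -0.29 to -0.16. For complex II the difference from complex IV was -0.07 to 0.12 on day 2, 0.15 to 0.31 on day 7 and -0.35 to -0.21 on day 21, again without overlap. For complex III it was -0.01 to 0.18, 0.09 to 0.33 and -0.27 to -0.26, so that days 2 and 7 overlapped and day 21 lay apart. Complexes I, II and III were not tested against each other or against complex IV, since the genes of a complex are not replicates. These differences restate the levels behind the changes above, as complex IV's mean moved little. They were not computed for other sets of genes. Across the 37 members, the change between days 7 and 21 had a Spearman rho of 0.17 and a Pearson r of 0.10 with the mean level, and across the 20 of complex I a rho of -0.05. The genes share the same arrays, so this only describes them.

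**Figure D4:**
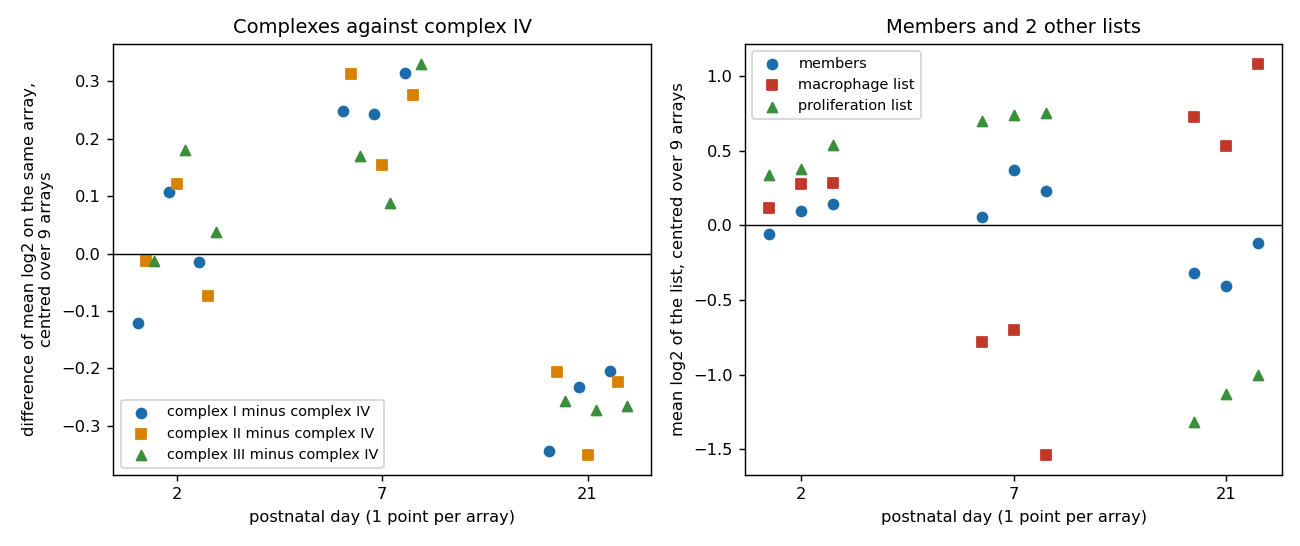
Left, mean log2 level of complexes I, II and III minus that of complex IV on the same array, centred over the 9 arrays, by postnatal day. Right, mean log2 level of the 37 members, 29 macrophage markers and 22 proliferation genes, each centred over the 9 arrays. Complexes I and II are highest against complex IV on day 7, and all 3 complexes are lowest on day 21, where the macrophage list is highest and the proliferation list lowest.

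Members shared their ups and downs among the arrays of a day. On day 2, replicate 1 was the lowest array for 28 of 37 members. On day 7, replicate 1 was the lowest for 27 and replicate 2 the highest for 26. On day 21, replicate 3 was the highest for 30 and replicate 2 the lowest for 23. The mean over members was log2 9.29 ± 0.11 (SD, n = 3) on day 2, 9.45 ± 0.16 on day 7 and 8.95 ± 0.15 on day 21. Over complex IV it was 10.03 ± 0.08, 9.995 ± 0.174 and 9.91 ± 0.13, and over complex I 8.84 ± 0.13, 9.08 ± 0.17 and 8.47 ± 0.16. Because the members vary together within a day, the number called is not a count of independent tests.

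Markers of other cells and states moved between the same days. Among all genes 13.7% were higher and 24.4% lower at day 21 than at day 7, and 4.41% lower at day 7 than at day 2. Of 29 macrophage markers, 27 were higher at day 21 than at day 7 and 0 lower (median 1.86), and 18 were lower at day 7 than at day 2 (median -1.20). Of 13 endothelial markers 10 were lower at day 21 than at day 7 (median -1.05), and of 22 proliferation genes 19 were (median -1.96). Of 15 fibroblast markers 2 were higher and 5 lower (median 0.00), with changes from -2.44 to 1.29. Their mean was log2 10.635 on day 7 and 10.14 on day 21, with no overlap between the arrays of these days. Of 12 neutrophil and mast cell markers 9 were higher (median 1.58), of 13 lymphocyte markers 4 (median 0.36), of 6 airway epithelial markers 3 (median 0.47) and of 5 mesothelial markers 2 (median 1.43), and none of these was lower. Of 15 alveolar epithelial markers 6 were higher and 3 lower (median 0.37), of 15 heart and skeletal muscle markers 2 higher and 1 lower (median 0.05), and of 4 erythroid markers 0 were called by limma (0 also at an unadjusted p under 0.05). The log2 difference between the 3′ and 5′ actin control probe sets, a sign of RNA integrity, was 0.51 to 0.80 on day 2, 0.71 to 1.18 on day 7 and 0.49 to 0.73 on day 21. For Gapdh it was -0.07 to 0.16, -0.11 to 0.26 and 0.11 to 0.24, so that the actin order of days was not repeated there. The part of RNA integrity, of proliferation and of the cell types in the members' falls was not tested. That of macrophages cannot be read from the covariate fit above, since the markers' mean had no overlap between days 7 and 21.

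The rest of the mitochondrial machinery showed where the members sat. For the lists here and below, the shares of all genes between days 7 and 21 were 24.4% lower and 13.7% higher. In the members' range of mean level 33.8% were lower. Of 20 further measured subunits of complexes I to IV, 9 were lower at day 21 than at day 7 and 0 higher (median -0.39). The largest falls were those of Ndufa12 (-1.30 ± 0.18 SE, limma adjusted p = 0.000144), Ndufb4 (-1.09), Ndufc1 (-1.06) and Ndufa11 (-0.99), all accessory subunits of complex I. The complex IV subunits in that list, Cox6b1 and Cox7c, had changes of -0.26 (adjusted p = 0.332) and -0.40 (adjusted p = 0.0558) by limma, while Ndufa4, now counted with complex IV, fell (-0.87, adjusted p = 0.00161). Cox7a2l, a relative of Cox7a2 that links complexes III and IV, had a change of -0.09. These 4 genes were picked with their values known, to follow complex IV further. Ndufb4 was also the only one of the 20 called between days 2 and 7 (0.57, limma adjusted p = 0.0294). Of 15 ATP synthase genes, 11 were lower at day 21 than at day 7 and 0 higher (median -0.64). They were led by Atp5po, of the peripheral stalk (-1.04), and by Atp5f1c (-0.85) and Atp5f1a (-0.82), of the catalytic head. Of 73 genes of the mitochondrial ribosome, which translates the mitochondrially encoded subunits, 41 were lower and 3 higher (median -0.58), with Mrps11 (-1.58) and Mrpl48 (-1.43) lowest.

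Of 16 genes of the tricarboxylic acid cycle and pyruvate entry, 8 were lower and 1 higher at day 21 than at day 7 (median -0.31). Idh2, the NADP-dependent isocitrate dehydrogenase of mitochondria, was at log2 9.81, 9.91 and 9.94 on day 2, 10.41, 10.50 and 10.84 on day 7 and 7.97, 7.76 and 7.84 on day 21, with the 3 days far apart. It fell 6.62-fold to day 21 (log2 change -2.73 ± 0.16 SE, adjusted p = 4.27e-07) after a rise of 0.70 to day 7 (limma adjusted p = 0.017). The succinyl-CoA ligase subunits Suclg1 (-1.31) and Suclg2 (-1.22) and Idh3a (-1.07), of the NAD-dependent isocitrate dehydrogenase, followed. Of 39 assembly factors, 9 were higher and 1 lower at day 7 than at day 2 (median 0.22), and 18 were lower and 1 higher at day 21 than at day 7 (median -0.35). Among all genes 7.02% were higher and 4.41% lower at day 7 than at day 2. Timmdc1, which helps to build the membrane arm of complex I, was at log2 6.58, 6.67 and 6.39 on day 2, 7.60, 7.73 and 7.60 on day 7 and 5.66, 5.89 and 6.06 on day 21. It rose by 1.10 ± 0.16 SE to day 7 and fell by 1.77 ± 0.16 SE on the log2 scale to day 21. Nubpl, which delivers iron-sulphur clusters to complex I, fell most (-2.15), to a day 21 level of log2 4.10 to 4.34 that is at the low end of all values, followed by Uqcc2 (-1.55) of complex III and Cox15 (-1.44), which makes haem a for complex IV.

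Of 19 regulators of mitochondrial biogenesis and mitochondrial DNA, 2 were lower and 5 higher at day 21 than at day 7 (median -0.07 as deposited, but 0.15 after a further quantile normalization and 0.04 with arrays centred on their median). Ssbp1, which binds single-stranded mitochondrial DNA, fell (-1.54 ± 0.18 SE, limma adjusted p = 4.3e-05), and so did Gabpa, the DNA-binding chain of an ETS factor (-0.63, adjusted p = 0.00927). Polg2, of the mitochondrial DNA polymerase (1.05), Esrra, a nuclear receptor that acts with PGC-1 coactivators (0.78), and the coactivator Pprc1 (0.71) rose. Ppargc1a, Nrf1, Tfam and Yy1 were not called in any of the 3 comparisons, with changes of -0.39, -0.07, -0.28 and -0.22 between days 7 and 21. These 4 and Gabpa were singled out for their known roles.

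**Figure D5:**
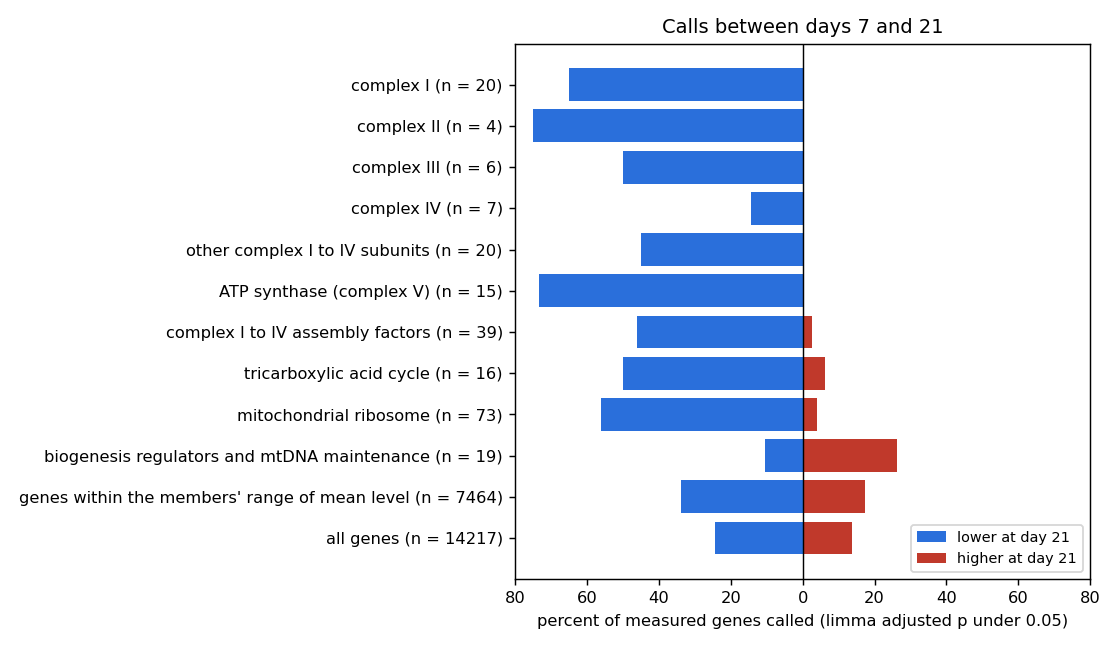
Percent of the measured genes of each complex and of other mitochondrial lists called lower (left, blue) or higher (right, red) at day 21 than at day 7, with the same for genes in the members' range of mean level and for all genes. On the lower side complexes I, II and III are at 65% (13 of 20), 75% (3 of 4) and 50% (3 of 6). Complex IV is at 14.3% (1 of 7), too few genes to set it apart from the backgrounds of 33.8% and 24.4%.

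Promoter sequences are shown for the members with the largest falls in complexes I and III, Ndufs4 and Uqcrc2, for Cox7b, the only complex IV member called, and for Cox4i1, whose day 21 arrays lay above those of day 7. They come from RefSeq (build GRCr8) and run from 150 bases before the gene's start to the first 30 bases of the gene, 5′ to 3′ on the gene's strand. Ndufs4 lies at chr2:47794885-47795064, minus strand, Uqcrc2 at chr1:184599090-184599269, plus strand, Cox7b at chrX:75148886-75149065, plus strand and Cox4i1 at chr19:65630233-65630412, plus strand. Capitals mark matches, on either strand, to the NRF1 letters GCGCANGCG, the ETS letters CCGGAAG or the YY1 letters AAGATGGCG.
Ndufs4: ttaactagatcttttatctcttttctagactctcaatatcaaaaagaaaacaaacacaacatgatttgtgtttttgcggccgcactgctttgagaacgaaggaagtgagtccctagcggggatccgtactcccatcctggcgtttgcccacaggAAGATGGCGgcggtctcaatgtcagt
Uqcrc2: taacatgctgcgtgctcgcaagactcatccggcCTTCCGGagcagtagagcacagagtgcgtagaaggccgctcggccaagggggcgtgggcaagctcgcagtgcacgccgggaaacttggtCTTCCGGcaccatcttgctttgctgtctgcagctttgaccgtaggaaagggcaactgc
Cox7b: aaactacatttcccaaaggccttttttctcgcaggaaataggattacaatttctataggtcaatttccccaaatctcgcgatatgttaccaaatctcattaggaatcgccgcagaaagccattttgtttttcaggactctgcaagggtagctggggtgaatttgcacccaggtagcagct
Cox4i1: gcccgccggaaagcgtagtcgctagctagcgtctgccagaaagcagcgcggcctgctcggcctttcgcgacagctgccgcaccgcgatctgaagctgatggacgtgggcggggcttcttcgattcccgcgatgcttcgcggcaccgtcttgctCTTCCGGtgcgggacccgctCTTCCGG
Ndufs4 holds a YY1 match just after its start, Uqcrc2 and Cox4i1 each hold 2 ETS matches, read here from the opposite strand, and Cox7b holds none of the 3.

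Over the full windows of the table, 250 bases before to 50 after the start, 36 of the 41 members were listed, and Ndufa8, Cyc1, Uqcrb, Cox6a1 and Cox6c were not. The ETS letters matched in 13 of the 36 (36.1%), against 8.75% of 33469 promoters of all genes and 10.7% of 21851 promoters of protein-coding genes. The YY1 letters matched in 7 (19.4%), against 1.73% and 2.07%, and the NRF1 letters in 6 (16.7%), against 5.8% and 7.62%. No match of a motif overlapped a match of another. Of the 7 YY1 matches 6 were in complex I genes (Ndufs4, Ndufs6, Ndufs7, Ndufa2, Ndufa9 and Ndufb8) and 1 in Uqcrc1. All 7 were on the gene's own strand, across or just after its start. The YY1 letters contain ATG, and whether these matches are translation starts was not tested. The ETS matches included Cox4i1, Cox5b, Cox7a2 and Cox8a of complex IV. Among measured members, those with an ETS match had a median change of -0.35 between days 7 and 21 (6 of 12 called lower) and those without -0.58 (12 of 21). With a YY1 match the median was -0.73 (5 of 7) and without -0.49 (13 of 26), and with an NRF1 match it was -0.40 (2 of 5) and without -0.60 (16 of 28). Ndufs7 and Uqcrc1, with YY1 matches, were among the members that did not pass. A match is a run of letters and not a shown binding site.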

How the data were processed

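The deposited values are 1 intensity per probe set, on a linear scale. The submitters' processing notes name RMA and the affy package. The sources used here give neither versions nor filters. Where applied, RMA's background correction and quantile step understate the changes of dim genes and cannot show a change in RNA per cell. A quantile step leaves arrays with similar distributions, but the array medians here differed (intensity 37.9 to 50.4). How far that step shaped the deposited values is therefore not known. Alternatives with a further quantile normalization and with median centring were run. Log2 was taken, 57 AFFX controls were dropped, and 31042 probe sets were tested with limma 3.58.1 in R 4.3.3, fitting the 3 day means to all 9 arrays together without a block, 6 residual and 5.69 prior degrees of freedom, and Benjamini-Hochberg adjustment over all probe sets within a comparison. The procedure was tested on simulated data with noise drawn independently for each probe set. That simulation does not cover members that vary together within a day.

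No arrays were identical, and those of the same day correlated at 0.976 to 0.988. P-values measure the spread between litters, and 3 arrays per day limit the precision. The members, gene lists, markers and motifs were chosen with earlier results of these data known. Full statistics are given for at most 4 called members per complex and comparison, those with the largest changes, and for the largest change where none was called. From each other list at most 4 called genes are named per comparison, apart from those said to be singled out or picked. Comparisons share arrays of a day. Other alternatives were log2 of intensity plus 16, a filter on dim probe sets, all probe sets of a gene, the litter number as a block, only the days compared, an intensity trend, a macrophage covariate and leaving out each array. The Cox5a and median versions of the complex comparison and the background of genes in the members' range of level were added after the data were seen.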

Additional observations from a re-analysis of the deposited data

How the results depend on the processing

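The direction of the members' median change was the same in all 18 alternatives in each comparison, at 0.08 to 0.44 for day 7 minus day 2, -0.94 to -0.42 for day 21 minus day 7 and -0.43 to -0.23 for day 21 minus day 2. Several alternatives could not move this median. The dim filter, the block, the fit of only the days compared and the intensity trend can alter calls but left the members' changes as they were. Leaving out an array of the day not compared did the same. Leaving out 1 array gave 13 to 22 members lower at day 21 than at day 7 (as reported, 20) and 3 to 12 lower at day 21 than at day 2 (as reported, 12). Centring arrays on their median gave 11 and 5, and a further quantile normalization 16 and 6. The macrophage covariate gave 0 and 4, with medians of 0.44, -0.94 and -0.43, and its SEs are larger (median 0.52 for day 21 minus day 7), since the markers differ between days. It turned Cox5a between days 2 and 7 to 0.028 (limma adjusted p = 0.986). The pseudocount of 16 gave 1 member higher at day 7 than at day 2. Of 432 values of the members given full statistics, 367 kept call and direction, 64 kept direction and missed the threshold, and 1 reversed.

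The labels number the litters 1 to 3 on each day, without saying whether a number carries over from day to day. Deviations from the day means correlated at -0.24 to 0.41 between arrays of the same number and at -0.29 to 0.24 between arrays of different numbers. Between days 2 and 7 alone the ranges were 0.08 to 0.41 and -0.29 to 0.06, so same-number pairs were all higher there. Pairs with day 21 had no such order. The main fit used no block, as the labels do not state pairs. With the replicate block 0 members were called between days 2 and 7. With the replicate block 20 members were lower at day 21 than at day 7, all of them among the 20 reported, and 11 lower at day 21 than at day 2, 9 of them among the 12 reported. Sdhb, Sdhd and Cyc1 were the 3 that missed the threshold there.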

Other observations

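Tissue-restricted or stress-related isoforms of the same complexes were measured for 7 genes. Ndufa4l2, a relative of Ndufa4 induced by low oxygen in other cells, was at log2 6.17, 6.18 and 6.85 on day 2, 6.66, 6.71 and 7.08 on day 7 and 5.73, 4.86 and 5.96 on day 21. It fell 2.46-fold between days 7 and 21 (log2 change -1.30 ± 0.28 SE, adjusted p = 0.00353), and its day 21 arrays were the lowest and the most spread. Cox6a2, the heart and muscle counterpart of Cox6a1, was at log2 5.87, 5.55 and 6.15 on day 2, 5.42, 4.78 and 5.05 on day 7 and 4.35, 4.86 and 4.51 on day 21 and was lower at day 7 than at day 2 (log2 change -0.77 ± 0.22 SE, adjusted p = 0.0457) and lower at day 21 than at day 2 (log2 change -1.28 ± 0.22 SE, adjusted p = 0.00177). Cox8b, the muscle counterpart of Cox8a, was at log2 4.89, 3.88 and 3.69 on day 2, 5.04, 5.08 and 5.02 on day 7 and 3.77, 3.99 and 4.12 on day 21, so that its fall of 1.09 on the log2 scale to day 21 left its day 21 arrays under log2 4.25, the 25th percentile of all values. Cox6b2, known from testis, fell by 0.78 on the log2 scale over the same days. Cox4i2, the lung and hypoxia counterpart of Cox4i1, was at log2 5.70, 5.38 and 6.12 on day 2, 6.17, 5.81 and 6.10 on day 7 and 5.97, 5.38 and 6.19 on day 21 and was called in no comparison, as were Cox7a1 and Cox7b2.

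Of the 39 assembly factors, Cox17, the copper chaperone of complex IV, was the only one called lower at day 7 than at day 2 and the only one called higher at day 21 than at day 7, and it was picked with its values known. It was at log2 7.97, 8.31 and 8.06 on day 2, 7.30, 7.53 and 6.89 on day 7 and 8.49, 8.35 and 8.83 on day 21, with no overlap between day 7 and either other day. It was lower at day 7 than at day 2 (log2 change -0.88 ± 0.20 SE, adjusted p = 0.018) and higher at day 21 than at day 7 (log2 change 1.31 ± 0.20 SE, adjusted p = 0.000311). The macrophage markers had the same order of days, and their part in this was not tested.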
